A study of Mus musculus with 30 samples.

Results

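The genes described here are 36 mouse genes for splicing factors and heterogeneous nuclear ribonucleoproteins (hnRNPs), out of 41388 genes in the deposited tables. They were chosen by name from the symbols paired with the Ensembl identifiers, and each of the 36 names matched 1 identifier. They comprise 12 SR proteins and their Tra2 relatives, 16 hnRNPs including Ptbp1, 5 regulators known for tissue-dependent splicing (Esrp2, Rbfox2, Mbnl1, Celf1 and Qk) and 3 factors that recognise the 3′ splice site or the branch point (U2af2, Sf3b1 and Sf1).

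Splicing joins exons in nuclear pre-mRNA, and which exons are joined depends on proteins bound nearby. SR proteins, named for a domain rich in serine and arginine, mostly bind exons and favour their inclusion, whereas hnRNPs package pre-mRNA and often favour skipping. Esrp2 is an epithelial splicing regulator that sets the adult splicing programme of hepatocytes, and Mbnl1 and Celf1 act in opposition on many exons. A1CF, the protein that the study altered, is itself an RNA-binding protein of the hnRNP type, best known as a partner of the deaminase APOBEC1 in the editing of Apob mRNA.

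The study compared mice carrying an A1cf transgene (strain label A1cf_Tg/+, here Tg) with C57BL/6J wild-type mice (WT 6J), and A1cf-deficient mice (A1cf_-/-, here KO) with C57BL/6NJ wild-type mice (WT 6NJ). RNA was sequenced from hepatocytes of 12-week-old mice, kept overnight on collagen after perfusion of the liver, in 3 Tg and 3 WT 6J pools. Whole livers of 12-month-old mice were sequenced as 4 Tg and 4 WT 6J pools in one sequencing study, and as 3 KO and 3 WT 6NJ pools in another. A further 10 libraries hold RNA crosslinked to A1CF and precipitated with it (CLIP-seq) from Tg hepatocytes. Every RNA-seq pool combined 3 to 4 mice, and the p-values below cover the variation from pool to pool. The labels name neither the promoter of the transgene nor the deleted part of A1cf.

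Library totals ran from 17044839 to 37211328 counts for RNA-seq and from 6151 to 10902 for CLIP-seq. A1cf itself stood at 20.1 to 28.9 CPM (the count divided by the library total and scaled up to one common size) in KO livers, against 199 to 237 CPM in WT 6NJ livers. It did not stand higher under the Tg label: 156 to 174 CPM in Tg livers against 216 to 279 CPM in WT 6J livers, and 7.36 to 10.5 CPM in Tg hepatocytes against 6.46 to 11.0 CPM in WT hepatocytes. Whether the transgene's RNA falls within the counted A1cf exons is not given, so Tg stands below for libraries labelled Tg. Hepatocyte markers were present in all pools, and 1 WT 6J liver pool (pool 2) held skeletal muscle RNA, with 1522 CPM summed over 8 muscle markers against at most 76.6 CPM in any other liver pool. In bulk RNA, fewer cells of a type and less RNA per cell cannot be told apart.

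The set of genes was far from evenly expressed. On a per-length scale (RPKM, the CPM divided by gene length in kilobases), the 4 highest genes over the 6 RNA-seq groups were Hnrnpa2b1 with a mean of 56.9 RPKM, Ptbp1 with 41.1, Sf1 with 28.3 and U2af2 with 28.2. The 4 lowest were Hnrnph3 with 3.49 RPKM, Hnrnpll with 3.03, Srsf10 with 3.00 and Hnrnpr with 2.29. These means pool groups that differ in order. In WT 6J livers the highest were Hnrnpa2b1 with 56.6 RPKM, Esrp2 with 25.9, Srsf5 with 23.2 and Mbnl1 with 22.6, and the lowest were Srsf1 with 0.0235, Hnrnpa1 with 1.47 and Hnrnpa3 with 1.66. In Tg hepatocytes Ptbp1 came first, and Srsf1 was the lowest gene in all 4 groups outside the KO study. Hnrnpa2b1 encodes one of the core proteins of hnRNP particles, and Ptbp1 encodes the polypyrimidine tract binding protein, a repressor of many exons. Ptbp1 was at 87.6, 91.5 and 78.1 RPKM in Tg hepatocytes and at 68.2, 67.2 and 71.1 RPKM in WT hepatocytes. In livers it reached at most 29.7 RPKM, in 1 WT 6NJ pool. Esrp2 had the opposite order of materials, at 13.2 ± 1.6 RPKM in Tg hepatocytes and 15.2 ± 2.4 RPKM in WT hepatocytes (SD, n = 3 each), and 24.3 to 26.3 RPKM as the mean of each of the 4 liver groups. The median RPKM of the 36 genes was 9.65 in Tg hepatocytes and 15.6 in WT hepatocytes, 8.63 in Tg livers and 8.51 in WT 6J livers, and 10.8 in KO livers and 11.0 in WT 6NJ livers.

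**Figure D1:**
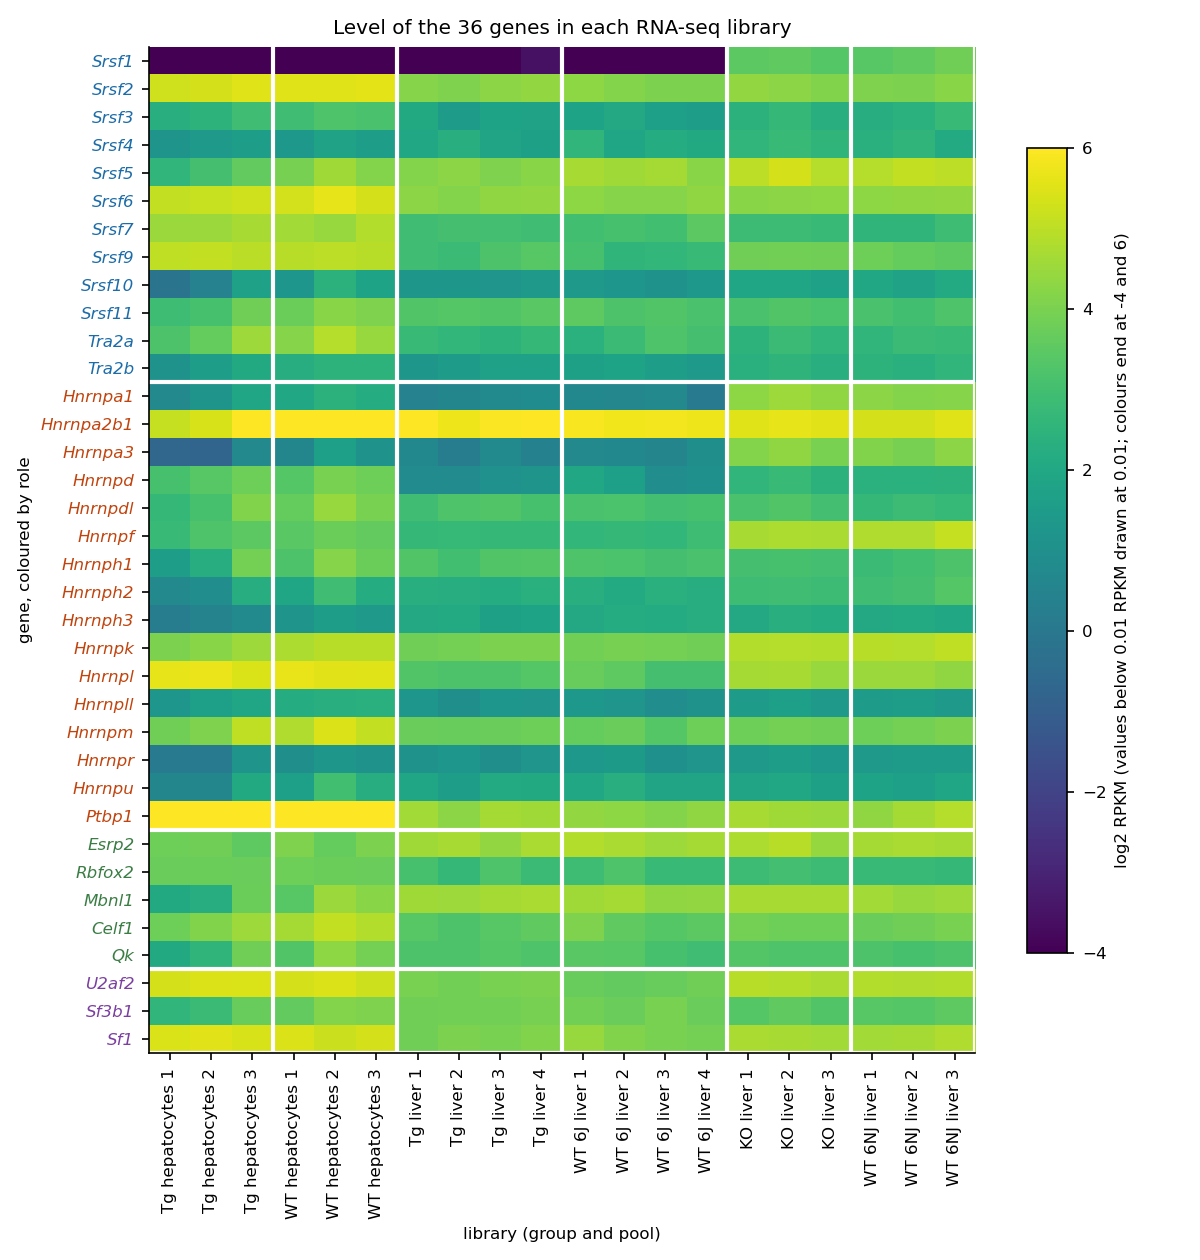
Level of each of the 36 genes (rows, grouped and coloured by role) in each of the 20 RNA-seq libraries (columns, Tg or KO pools left of their wild-type pools), as log2 RPKM. Srsf1 lies at the dark end in the 14 hepatocyte, Tg liver and WT 6J liver libraries and in the middle of the scale in the 6 KO and WT 6NJ libraries.

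The 2 sets of wild-type livers differed most for the founding SR protein gene. Srsf1 (ENSMUSG00000018379, GRCm38 chr11:88047373-88053755, plus strand) encodes the factor also called SF2/ASF. It had 1938, 1932 and 1726 reads in the KO pools and 1548, 2293 and 2841 in the WT 6NJ pools. In the Tg liver pools it had 4, 3, 1 and 9 reads, and in the WT 6J liver pools 3, 2, 2 and 3. In hepatocytes it had 0, 0 and 2 reads in Tg pools and 5, 3 and 4 in WT pools. All 14 libraries outside the KO study together held 41 Srsf1 reads among 356439408 counts, and no library of one study came near any of the other. Srsf1 therefore passed the filter on low counts only in comparisons with KO pools. Its neighbour Vezf1 (chr11:88068279-88084729), a gene named after its values were seen, had a mean of 21.3 CPM in WT 6NJ livers and 0.0478 CPM in WT 6J livers.

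A further 3 genes differed by more than 4-fold between the wild-type sets, and all 3 encode hnRNPs. Each shares sequence with pseudogenes, but so do genes of the set that hardly differed. Qk, at a log2 ratio of -0.06 for WT 6NJ over WT 6J livers, shares some with 7 pseudogenes, as many as Hnrnpf. The extent of sharing was unlike, however. By the percentage of shared sequence defined below, Qk stood at 0.126% and Hnrnpf at 36.8%. Hnrnpa1 (ENSMUSG00000046434), the most studied hnRNP, was at 36.4, 33.7 and 35.0 CPM in WT 6NJ livers and at 3.08, 3.00, 3.14 and 2.05 CPM in WT 6J livers. Hnrnpa3 (ENSMUSG00000059005), its close relative, was at 92.6, 83.7 and 104 CPM in WT 6NJ livers and at 8.78, 8.49, 7.996 and 10.6 CPM in WT 6J livers. Hnrnpf (ENSMUSG00000042079), which binds runs of G, was at 84.4, 84.8 and 107 CPM in WT 6NJ livers and at 18.6, 19.2, 18.8 and 22.9 CPM in WT 6J livers. The KO pools lay near the WT 6NJ pools and the Tg pools near the WT 6J pools for each of them. Of the 13559 genes whose mean reached 1 CPM in one or the other set, 4.43% were more than 4-fold higher and 2.01% more than 4-fold lower in WT 6NJ livers. Among the 36 genes, 4 were more than 4-fold higher and 0 more than 4-fold lower.

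The coding sequences of Hnrnpa3 and Hnrnpf are shared over long runs with pseudogenes, and 1 stretch of each pair is shown because a short read from it can align to both places. The stretches are 90 bases of the GENCODE M21 transcripts, 5′ to 3′ on the strand of the gene, ending just past the longest shared run, and capitals mark the bases that differ within a pair. The runs are 667 bases for Hnrnpa3 (chromosome 2, coding bases 615 to 704 shown) with Gm11847 (chromosome 4) and 657 bases for Hnrnpf (chromosome 6, bases 811 to 900) with Gm12435 (chromosome 4).
Hnrnpa3: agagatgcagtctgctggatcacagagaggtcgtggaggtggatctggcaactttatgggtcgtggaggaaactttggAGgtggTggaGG
Gm11847: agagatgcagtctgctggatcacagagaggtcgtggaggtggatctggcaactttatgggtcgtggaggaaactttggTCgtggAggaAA
Hnrnpf: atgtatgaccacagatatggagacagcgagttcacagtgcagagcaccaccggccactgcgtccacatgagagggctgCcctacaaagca
Gm12435: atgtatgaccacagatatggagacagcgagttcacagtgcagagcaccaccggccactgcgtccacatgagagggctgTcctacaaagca

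Over all 36 genes, sequence shared with other genes was counted as the percentage of distinct 50-base words of a gene's transcripts that also occur in a transcript of another gene. It was 36.8% for Hnrnpf, 28.2% for Hnrnpa1, 27.1% for Hnrnpa3, 15.9% for Hnrnph2, 14.7% for U2af2 and 14.5% for Hnrnpk. The 11 genes at 5% or more had a median log2 ratio of WT 6NJ over WT 6J livers of 0.87, with a range of 0.28 to 3.63. The other 25 had a median of -0.01. Without Srsf1 they ranged from -0.48 to 1.08, the highest being Hnrnpl, and Srsf1 stood far outside them with 9.01 although 0% of its words occur elsewhere. Without Srsf1, the ratio and the shared percentage had a Pearson correlation of 0.84 and a Spearman correlation of 0.61 over 35 genes. These genes share their libraries, and the values are given as a description. Hnrnpf, Hnrnpa1 and Hnrnpa3, named above for their ratios, also have the highest shared percentages and enter both correlations. The part of shared sequence in the ratios was not tested. The pseudogenes were lower in WT 6J livers as well. Gm11847 had 0.183 CPM in WT 6NJ livers and 0.0383 CPM in WT 6J livers, and Gm12435 had 1.197 CPM in WT 6NJ livers and 0.0530 CPM in WT 6J livers. All 13 counted pseudogenes that share a word with Hnrnpa1 summed to 1.197 CPM in WT 6NJ livers and 0.0714 CPM in WT 6J livers. The 5 that share one with Hnrnpf summed to 3.42 CPM in WT 6NJ livers and 0.0973 CPM in WT 6J livers. The 29 that share one with Hnrnpa3 summed to 9.58 CPM in WT 6NJ livers and 3.65 CPM in WT 6J livers, where Hnrnpa3 itself averaged 93.4 CPM in WT 6NJ livers and 8.97 CPM in WT 6J livers. How the submitters treated reads that align to several places is not given in the sources used here. Substrain, sequencing study and any difference in alignment cannot be told apart, so levels are compared below only within a study, or between hepatocytes and WT 6J livers.

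**Figure D2:**
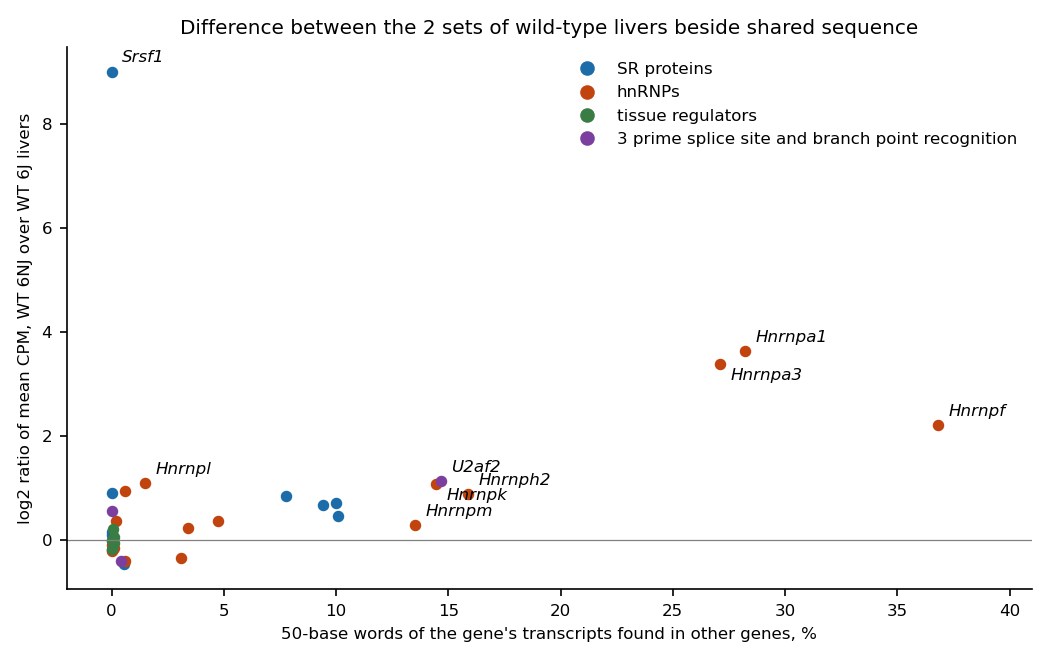
Log2 ratio of mean CPM in WT 6NJ livers over WT 6J livers (vertical axis) against the percentage of 50-base words of the gene's transcripts found in other genes (horizontal axis), 1 point per gene, coloured by role. Hnrnpa1, Hnrnpa3 and Hnrnpf lie at 27.1% to 36.8% with ratios from 2.21 to 3.63, and Srsf1 lies alone at 0% and 9.01.

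In hepatocytes, the comparison of Tg with WT pools asks what the A1cf transgene changes in cells taken from their tissue. Most of the genes lay lower in Tg pools: 29 of the 35 that passed the filter had a log2 fold change below 0 and 6 above it, with a median of -0.62 against -0.02 over all 13770 genes tested, of which 51.1% were below 0. However, 0 of the 35 passed an adjusted p of 0.05 in edgeR's quasi-likelihood test, where 3.15% of all genes did, 1.53% higher and 1.62% lower in Tg pools. DESeq2 called 4, all lower in Tg pools, against 14.6% of all genes, and 14 of the 35 had an unadjusted p under 0.05, against 28.9%. In 1 fit of all 6 groups, which also tested Srsf1, 17 of 36 were called, against 25.0% of all genes. By role, 10 of 11 SR genes, 14 of 16 hnRNP genes and 4 of 5 tissue regulators were below 0, as was 1 of the 3 genes of 3′ splice site and branch point recognition.

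Hnrnph3, a small relative of hnRNP H, had the smallest p of the 35. It was at 3.97, 4.26 and 5.25 CPM after TMM scaling, edgeR's correction of library size, in Tg pools and at 7.10, 9.41 and 8.15 CPM in WT pools. The pools did not overlap, and the log2 fold change was -0.87 ± 0.21 (SE), with an adjusted p of 0.0685 in edgeR. Srsf5, an SR protein gene that responds to hormones and growth signals, was at 25.7, 32.2 and 48.4 CPM in Tg pools and at 61.8, 94.1 and 67.8 CPM in WT pools. Every Tg pool lay below every WT pool, with a log2 fold change of -1.07 ± 0.28 (edgeR adjusted p of 0.0777). Hnrnpk, which encodes a protein that binds runs of C, was at 98.5, 102 and 131 CPM in Tg pools and at 155, 169 and 166 CPM in WT pools. Its groups were also apart, at -0.56 ± 0.15 (edgeR adjusted p of 0.0797).

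Hnrnpll, a regulator of exon choice in lymphocytes, had 30.4, 35.7 and 44.3 CPM in Tg pools and 53.7, 56.7 and 57.4 CPM in WT pools, a log2 fold change of -0.60 ± 0.17 (edgeR adjusted p of 0.0894). Celf1 had 125, 142 and 197 CPM in Tg pools and 217, 282 and 234 CPM in WT pools, at -0.66 ± 0.20 (edgeR adjusted p of 0.107). Tra2b, a sequence-specific activator of exons, had 12.6, 16.0 and 22.8 CPM in Tg pools and 25.5, 29.2 and 28.3 CPM in WT pools, at -0.69 ± 0.24 (edgeR adjusted p of 0.125). In all 3 the third Tg pool was the highest Tg pool and still lay below every WT pool. Groups without overlap were seen in 10 of the 35 genes downwards and 1 upwards, against 16.5% of all genes in each direction and 32.9% in either. The 1 upward gene was Ptbp1, with 448, 422 and 368 CPM in Tg pools and 326, 315 and 324 CPM in WT pools, at 0.36 ± 0.12 (edgeR adjusted p of 0.127).

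The Tg hepatocyte pools were unlike each other. The median difference of the 35 genes from the mean of the WT pools, in log2 CPM, was -0.95 in the first Tg pool, -0.79 in the second and -0.11 in the third, against -0.16, 0.20 and -0.03 in the WT pools. Mbnl1, the muscleblind gene, showed the gap plainly, at 25.2, 25.3 and 75.8 CPM in Tg pools and 59.8, 124 and 101 CPM in WT pools. Hnrnph1 was at 18.4, 26.5 and 88.5 CPM in Tg pools and at 53.9, 106 and 75.1 CPM in WT pools. In both genes the third Tg pool lay among the WT pools. Without that pool, edgeR called 23 of the 35 genes, 22 lower and 1 higher in Tg pools, where it called 35.0% of all genes. Leaving out any other single pool gave 0 called genes of the 35 and 0% to 0.644% of all genes. The third Tg pool was singled out after its values were seen, so the 23 calls support nothing about the genotype. Without the first and second Tg pools and the first WT pool, a choice made after seeing the data that leaves 1 Tg pool beside 2 WT pools, the median was -0.21, with 29 genes below 0. That fit called 0 of the 35 and 3.33% of all genes, and supports nothing about the genotype, since the pools were picked after their pattern was seen.

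The differences moved with gene length. Correlations of a library's log2 difference from the WT mean with log2 length, over all genes tested, were -0.25, -0.21 and -0.09 in the Tg pools and -0.17, 0.13 and 0.05 in the WT pools. The 35 genes were long, with a median of 4863 bases against 3572.5 over all genes tested. All genes tested were split by length into 5 bins of about equal size. In the bin of longest genes the median log2 fold change was -0.37, against 0.17 in the bin of shortest genes. The 9 genes of the set in the bin of longest genes had a median of -0.67. The 14 in the next bin had -0.59, where all genes of that bin had -0.08. In the middle bin 6 genes of the set had -0.53, against 0.01 over all genes. In the next shorter bin 4 had -0.08 against 0.12, and in the bin of shortest genes 2 had -0.25 against 0.17. Among the 35 genes, fold change and log2 length had a Pearson correlation of -0.32 and a Spearman correlation of -0.26. Over all genes tested these were -0.21 and -0.27. With a trend of length removed from each library, the median of the 35 genes was -0.37 against 0.05 over all genes. In that fit 30 of the 35 were below 0 and 0 were called, against 2.97% of all genes. The share of mitochondrially encoded counts also differed, at 1.40%, 1.39% and 3.48% in Tg pools and 2.01%, 3.71% and 3.14% in WT pools. The part of length or RNA quality in the difference was not tested beyond these values.

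**Figure D3:**
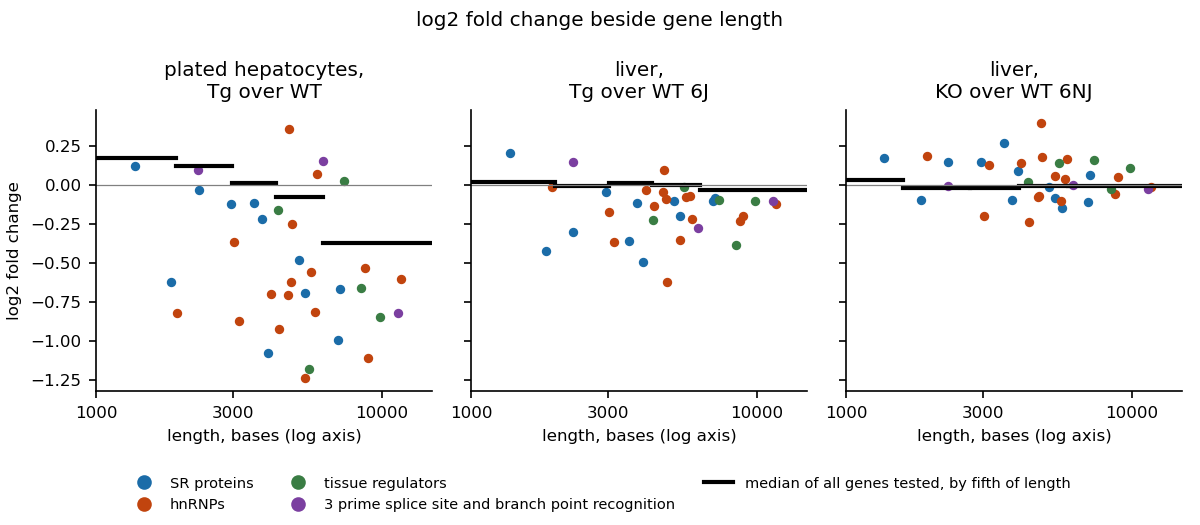
Log2 fold change of each gene (points, coloured by role) against its length in bases on a log axis, in plated hepatocytes, Tg over WT, in liver, Tg over WT 6J, and in liver, KO over WT 6NJ. Black bars give the median of all genes tested in each of 5 bins of length, cut at the ends of the axis. In hepatocytes the bars fall to -0.37 in the bin of longest genes and most points lie below them, while in both liver comparisons the bars stay near 0.

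Lists of the splicing machinery outside the set lay on both sides of 0. Of 101 tested genes in 9 further lists, edgeR called 0 in hepatocytes, against 3.15% of all genes. Their median log2 fold change was -0.02. Genes of the Sm ring and U1 particle, the core that marks the 5′ splice site, were above 0 in 8 of 10 cases with a median of 0.18, and genes of the U2 particle in 11 of 12 with a median of 0.22. SR kinases, which phosphorylate SR proteins, were below 0 in 7 of 8 cases with a median of -0.40, and SR-related and speckle proteins in 11 of 14 with a median of -0.52. Other hnRNPs and poly(C)-binding proteins were below 0 in 10 of 13 cases with a median of -0.21, and other splicing regulators in 11 of 15 with a median of -0.59, near that of the set. Markers of Kupffer cells and macrophages were above 0 in 8 of 8 cases, with a median of 0.85. Their summed level was 291 to 593 CPM in Tg pools and 183 to 270 CPM in WT pools. Hepatocyte markers were above 0 in 9 of 9 cases, with a median of 0.20. Cholangiocyte markers were above 0 in 3 of 5 cases, with a median of 1.31. The summed level of cholangiocyte markers was 406 to 670 CPM in Tg pools and 690 to 1223 CPM in WT pools. The part of these cell types in the values was not tested.

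In whole liver of older mice, the same genotype comparison gave smaller differences. Of the 35 genes tested, 32 had a log2 fold change below 0 and 3 above it, with a median of -0.12 against -0.00 over all 14110 genes. Again 0 passed the adjusted threshold in edgeR, where 1.33% of all genes did (0.971% higher and 0.361% lower in Tg livers), with 5 at an unadjusted p under 0.05 (20.3% of all genes) and 1 called by DESeq2 (8.80% of all genes). Groups without overlap were seen in 5 of 35 genes downwards, against 5.29% of all genes, and in 0 upwards, against 6.41%.

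Srsf5 was again among the lowest. It was at 71.0, 75.0, 61.0 and 70.1 CPM in Tg livers and at 106, 95.1, 109 and 78.8 CPM in WT 6J livers. The groups did not overlap, with a log2 fold change of -0.49 ± 0.12 and adjusted p-values of 0.0779 in edgeR and 0.00817 in DESeq2. Hnrnpd, also called AUF1 and known for its part in mRNA decay, was at 8.60, 8.42, 9.14 and 10.3 CPM in Tg livers and at 20.4, 15.3, 9.95 and 10.6 CPM in WT 6J livers. Here 2 WT pools stood well above all others and the lowest WT pool lay within the Tg range, at -0.62 ± 0.22 (edgeR adjusted p of 0.168). Hnrnph3 was at 12.95, 13.4, 9.23 and 10.1 CPM in Tg livers and at 13.5, 14.5, 15.1 and 15.7 CPM in WT 6J livers, without overlap but nearly touching, at -0.36 ± 0.14 (edgeR adjusted p of 0.194).

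Celf1 was at 90.3, 76.0, 81.0 and 93.5 CPM in Tg livers and at 148, 100, 95.3 and 102 CPM in WT 6J livers, at -0.38 ± 0.15 (edgeR adjusted p of 0.204). Its groups were apart by a small gap, and the first WT pool stood above the other WT pools. Srsf7, an SR protein that also acts in mRNA export, was at 17.5, 18.3, 16.6 and 16.3 CPM in Tg livers and at 18.7, 19.3, 19.8 and 27.1 CPM in WT 6J livers, at -0.30 ± 0.13 (edgeR adjusted p of 0.239). Tra2a, the relative of Tra2b, was at 12.5, 11.0, 9.14 and 10.8 CPM in Tg livers and at 10.1, 13.1, 19.0 and 16.0 CPM in WT 6J livers, at -0.42 ± 0.19 (edgeR adjusted p of 0.259), and its groups overlapped. Fold change and length had a Pearson correlation of -0.11 over the 35 genes, and the medians of all genes by bin of length ran only from -0.03 to 0.02.

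Cell type markers were read in the same fit. All 9 hepatocyte markers were below 0 in Tg livers, with a summed level of 65731 to 74608 CPM in Tg pools and 97423 to 102471 CPM in WT 6J pools. Above 0 were 7 of 8 Kupffer cell and macrophage, 5 of 5 cholangiocyte, 5 of 6 endothelial and 2 of 2 neutrophil markers. So were 5 of 7 stellate cell and fibroblast markers, 1 of them with an edgeR adjusted p of 0.0294. Below 0 were 4 of 5 T, NK and B cell markers and 2 of 2 muscle markers. The part of cell makeup in the values was not tested. In the further splicing lists, 62 of 101 genes were below 0 with a median of -0.07. There 0 were called by edgeR, against 1.33% of all genes. Without the WT 6J pool that held muscle RNA, the median of the set was -0.14 and 0 of its genes were called, against 2.69% of all genes.

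In KO livers the genes lay on both sides of 0. Of the 36 tested, 19 were above 0 and 17 below, with a median log2 fold change of 0.03 against -0.01 over all 15942 genes. In edgeR 0 passed the adjusted threshold, where 2.98% of all genes did (1.50% higher and 1.48% lower in KO livers), with 1 at an unadjusted p under 0.05 (18.4% of all genes) and 1 called by DESeq2 (5.66% of all genes). Groups without overlap were seen in 7 genes upwards, against 11.6% of all genes, and in 3 downwards, against 12.7%.

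That 1 gene was Hnrnpdl (ENSMUSG00000029328), which encodes an hnRNP D-like protein. It was at 42.5, 46.2 and 39.1 CPM in KO livers and at 30.9, 35.2 and 31.1 CPM in WT 6NJ livers. Every KO pool lay above every WT pool, with a log2 fold change of 0.40 ± 0.10 and adjusted p-values of 0.0592 in edgeR and 0.0182 in DESeq2. Hnrnph2 was at 32.5, 32.7 and 31.9 CPM in KO livers and at 33.4, 36.9 and 44.2 CPM in WT 6NJ livers, apart by a narrow gap, at -0.24 ± 0.11 (edgeR adjusted p of 0.276). Hnrnpa1 was at 37.4, 43.2 and 39.4 CPM in KO livers and at 36.5, 34.3 and 34.6 CPM in WT 6NJ livers, at 0.19 ± 0.09 (edgeR adjusted p of 0.283). Hnrnpf was at 77.6, 81.5 and 82.3 CPM in KO livers and at 84.6, 86.3 and 106 CPM in WT 6NJ livers, at -0.20 ± 0.10 (edgeR adjusted p of 0.335). These groups did not overlap, though each gap was small beside the spread.

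Srsf4, a large SR protein, was at 20.996, 23.9 and 21.1 CPM in KO livers and at 18.001, 21.4 and 15.4 CPM in WT 6NJ livers, at 0.27 ± 0.13 (edgeR adjusted p of 0.298), with overlap. Over its exons, 43.0% of the length lies on the opposite strand of Gm12992, and without a stated strand setting the reads of the 2 genes cannot be told apart. Hnrnpd was at 29.3, 32.1 and 26.6 CPM in KO livers and at 25.8, 25.9 and 26.1 CPM in WT 6NJ livers, at 0.18 ± 0.09 (edgeR adjusted p of 0.342). Srsf1, measurable in this study, was at 63.1, 65.9 and 59.4 CPM in KO livers and at 59.9, 68.8 and 79.5 CPM in WT 6NJ livers, so that its groups overlapped.

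Outside the set, 2 of 100 tested genes of the further lists passed the test in KO livers, where 2.98% of all genes did. Their number is therefore not particular to these lists. Rbm47, a relative of A1cf that can also serve as a partner of APOBEC1, rose to 288 ± 18.4 CPM in KO livers, against 199.8 ± 14.0 CPM in WT 6NJ livers (SD, n = 3 each), at a log2 change of 0.53 ± 0.09 with an edgeR adjusted p of 0.0195. Snrpa, a protein of the U1 particle, fell to 27.3 ± 0.8 CPM in KO livers, against 35.3 ± 2.2 CPM in WT 6NJ livers (SD, n = 3 each), at -0.37 ± 0.09 with an edgeR adjusted p of 0.0499. All 7 tested skeletal muscle markers rose in KO livers, with a summed level of 16.7 to 76.6 CPM in KO pools and 0.590 to 0.820 CPM in WT 6NJ pools, and their part in the other values was not tested.

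**Figure D4:**
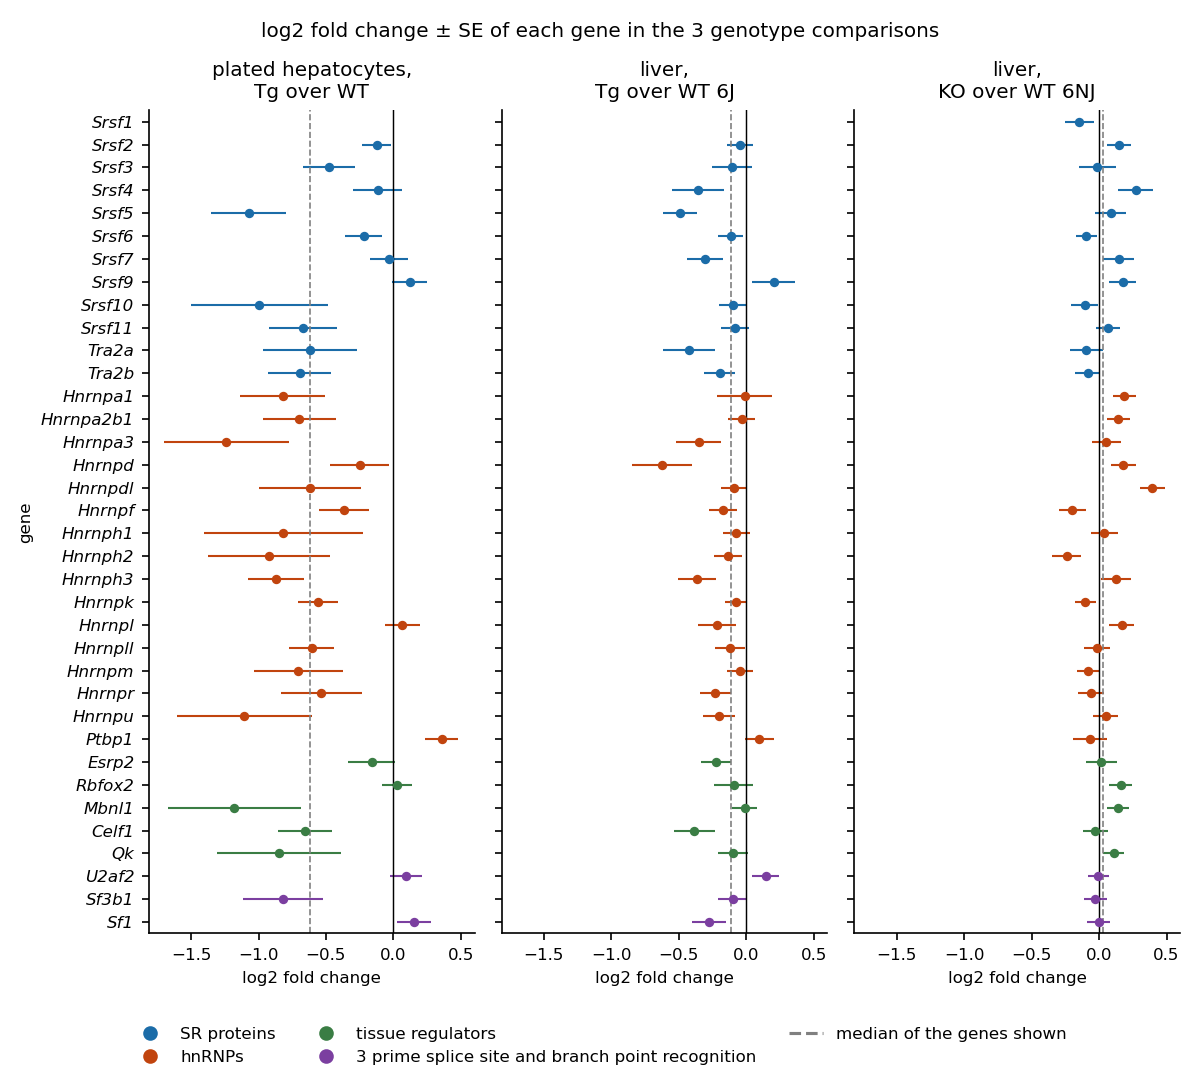
Log2 fold change with its standard error for each gene in plated hepatocytes, Tg over WT, in liver, Tg over WT 6J, and in liver, KO over WT 6NJ, in order of role from top to bottom. The dashed line marks the median of the genes shown, which is -0.62 in hepatocytes, -0.12 in Tg livers and 0.03 in KO livers.

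Differences between the effects were tested directly. Between Tg effects in hepatocytes and in liver, 0 of 35 genes passed in edgeR, where 0.842% of all genes did, with 3 at an unadjusted p under 0.05 (22.8% of all genes) and 0 called by DESeq2 (6.52% of all genes). The smallest p belonged to Sf1, the branch point binding protein, whose Tg effect was 0.15 ± 0.13 in hepatocytes and -0.28 ± 0.13 in liver, and the difference in the joint fit of the 4 groups was 0.62 ± 0.22 (edgeR adjusted p of 0.134). For all 35 genes the joint fit lay above the difference of the separate fits, by 0.14 to 0.19 with a median of 0.17, and for Sf1 the separate fits differed by 0.43. Next were Mbnl1 with a difference of -1.02 ± 0.42, Ptbp1 with 0.46 ± 0.20 and Srsf7 with 0.45 ± 0.21. Their edgeR adjusted p-values were 0.178, 0.195 and 0.221. With 1 pool left out at a time, the difference ranged from 0.36 to 0.73 for Sf1 and from -1.64 to -0.79 for Mbnl1. For Ptbp1 it ranged from 0.29 to 0.59 and for Srsf7 from 0.18 to 0.54. Without the third Tg hepatocyte pool, 15 genes passed, 2 above 0 and 13 below, and 22.4% of all genes did. Leaving out any other single pool gave 0 of 35 genes and 0.0315% to 1.48% of all genes. That pool was singled out after its values were seen, so the 15 calls support nothing about the genotype.

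Between the Tg effect and the KO effect in liver, 0 of 36 genes passed in edgeR, where 1.02% of all genes did (0.614% above 0 and 0.411% below), with 7 at an unadjusted p under 0.05 (16.9% of all genes) and 2 called by DESeq2 (4.88% of all genes). Of the 36 differences 28 were below 0, with a median of -0.19 against 0.01 over all genes. The 36 include Srsf1, which passed the filter only through the KO study pools. Its Tg effect rests on 4, 3, 1 and 9 reads in Tg livers and 3, 2, 2 and 3 in WT 6J livers, so its difference carries no information. The smallest p belonged to Hnrnpdl, at -0.50 ± 0.13 (edgeR adjusted p of 0.0799), followed by Srsf5 at -0.59 ± 0.18, Hnrnpd at -0.81 ± 0.27 and Hnrnph3 at -0.51 ± 0.19, whose edgeR adjusted p-values were 0.122, 0.150 and 0.204. Without the second Tg liver pool, 1 gene passed, Hnrnpdl, with an edgeR adjusted p of 0.0459, and 2.40% of all genes did. The Tg and KO livers came from different sequencing studies and substrains, and each effect was taken against its own controls.

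Plated hepatocytes and whole liver differed in most of the set. Between WT plated hepatocytes and WT 6J livers, 26 of the 35 genes tested passed in edgeR, 20 higher and 6 lower in hepatocytes. Among all 14824 genes tested, 72.0% passed, 35.6% higher and 36.4% lower, so the number of changed genes in the set is close to that of all genes, and the excess of higher ones is what differs in count. The median log2 fold change was 0.52, against -0.04 over all genes. Fold change and log2 length had a Pearson correlation of -0.29 over the 35 genes, against 0.03 over all genes. Of the SR genes 7 rose and 2 fell out of 11, of the hnRNP genes 9 rose and 2 fell out of 16, and of the tissue regulators 2 rose and 2 fell out of 5. Age, plating, cell makeup and sequencing cannot be told apart between these groups.

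Hnrnpd rose most, to 46.3, 65.3 and 56.1 CPM in hepatocytes, against 21.6, 16.2, 10.7 and 11.3 CPM in livers, a log2 fold change of 1.90 ± 0.25 (edgeR adjusted p of 9.76e-05). Hnrnpl, a binder of CA-rich RNA, was at 275, 234 and 229 CPM in hepatocytes and at 84.7, 72.9, 57.5 and 56.2 CPM in livers, at 1.86 ± 0.17 (edgeR adjusted p of 1.09e-05). Srsf9 was at 37.8, 36.1 and 34.9 CPM in hepatocytes and at 12.7, 8.55, 9.69 and 10.5 CPM in livers, at 1.81 ± 0.16 (edgeR adjusted p of 6.89e-06). For these 3 genes every hepatocyte pool was more than the highest liver pool by a wide margin.

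Ptbp1 was at 296, 266 and 284 CPM in hepatocytes and at 109, 100.1, 97.9 and 109 CPM in livers, at 1.44 ± 0.12, and had the smallest adjusted p of the set in edgeR, 5.45e-06. U2af2, the large subunit that binds the polypyrimidine tract ahead of the 3′ splice site, was at 85.2, 82.9 and 72.7 CPM in hepatocytes and at 32.0, 28.9, 34.2 and 36.8 CPM in livers, at 1.28 ± 0.13 (edgeR adjusted p of 1.97e-05). Hnrnpm was at 120.2, 174 and 136 CPM in hepatocytes and at 65.1, 65.4, 57.4 and 73.2 CPM in livers, at 1.13 ± 0.16 (edgeR adjusted p of 0.000137). It shares 24.9% of its counted length, on the same strand, with March2, and the split of those reads is not known. Among SR genes, Srsf7 (1.13 ± 0.17), Srsf2 (1.04 ± 0.12), Srsf3 (0.96 ± 0.13) and Srsf6 (0.80 ± 0.13) rose, with edgeR adjusted p-values of 0.000273, 4.07e-05, 0.000135 and 0.000368. Their hepatocyte and liver pools did not overlap.

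The 2 members with the smallest p among those that fell were Hnrnph3 and Esrp2. Hnrnph3 was at 6.43, 7.94 and 7.15 CPM in hepatocytes and at 14.4, 15.3, 16.2 and 16.7 CPM in livers, at -1.12 ± 0.15 (edgeR adjusted p of 0.000125). Esrp2 was at 66.2, 44.9 and 60.2 CPM in hepatocytes and at 137, 122, 119 and 124 CPM in livers, at -1.14 ± 0.16 (edgeR adjusted p of 0.000143). Every hepatocyte pool was below every liver pool in both genes. The other 4 that fell were Srsf4 at -1.02, Mbnl1 at -0.77, Srsf5 at -0.67 and Hnrnpr at -0.49. The other 10 that rose ranged from Tra2b at 0.39 to Hnrnpa1 at 1.27, whose counts lay between 35 and 76 in the WT 6J liver pools. The 9 that passed in neither direction were Srsf10, Srsf11, Hnrnpa2b1, Hnrnpa3, Hnrnph1, Hnrnph2, Hnrnpu, Qk and Sf3b1.

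**Figure D5:**
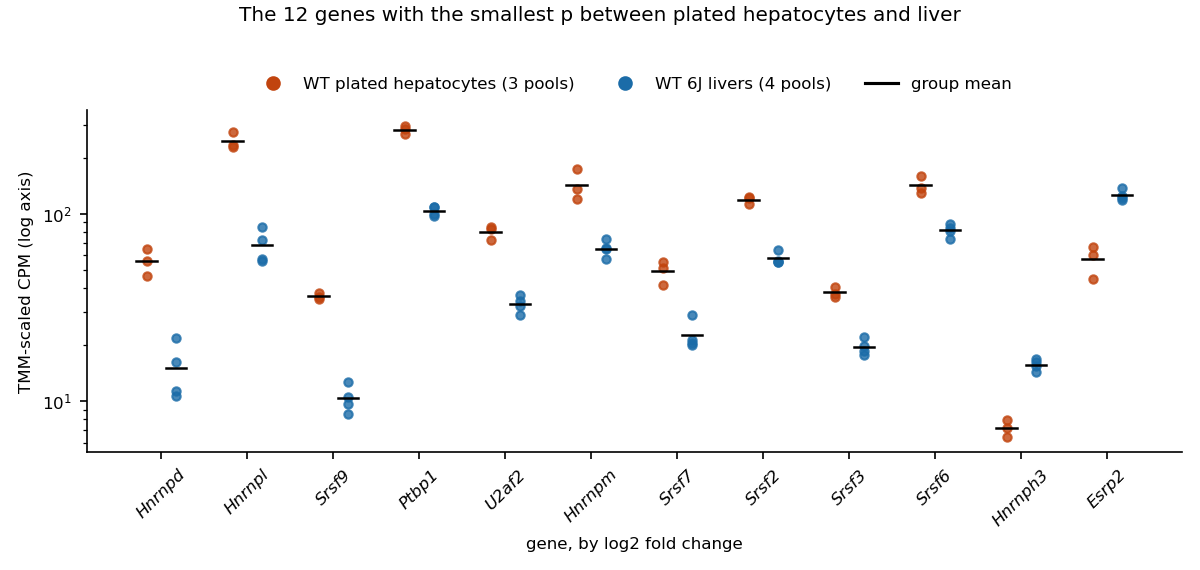
TMM-scaled CPM on a log axis in each WT plated hepatocyte pool (3 points, left) and each WT 6J liver pool (4 points, right) for the 12 genes with the smallest p, ordered by log2 fold change, with group means as black lines. The groups are apart for all 12 genes, and hepatocytes are the lower group for Hnrnph3 and Esrp2 only.

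The core machinery was mostly higher in hepatocytes. All 10 genes of the Sm ring and U1 particle rose in hepatocytes, as did all 12 genes of the U2 particle and all 5 of the exon junction complex, with median log2 fold changes of 1.33, 1.27 and 0.89. Of the list of tri-snRNP proteins and their partners, 9 rose and 1 fell out of 14. Sf3a2, a U2 subunit, rose by 2.51 ± 0.15 and Snrpd1, of the Sm ring, by 2.11 ± 0.20, with edgeR adjusted p-values of 8.62e-07 and 1.02e-05. Srpk1, a kinase of SR proteins, rose by 1.99 ± 0.12 (edgeR adjusted p of 7.35e-07). Among the other splicing regulators 3 rose and 5 fell out of 15, and Rbm47 fell by 1.86 ± 0.22 on the log2 scale (edgeR adjusted p of 4.44e-05). Over all 9 lists 64 of 101 genes rose and 11 fell, where 35.6% of all genes rose and 36.4% fell. Beside this, all 9 hepatocyte markers, 6 of 6 endothelial markers and 7 of 7 stellate cell and fibroblast markers fell. Not all markers did. Of the Kupffer cell and macrophage markers 6 fell and 1 rose out of 8, and of the cholangiocyte markers 2 fell and 2 rose out of 5. Cholangiocyte markers summed to 690 to 1223 CPM in WT hepatocytes and 37.3 to 48.2 CPM in WT 6J livers. The part of these cell types in the values was not tested.

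Few reads of the A1CF precipitates fell on these genes. The 10 CLIP libraries fell into 2 unlike sets of 5, with correlations of log2(CPM + 50) over 295 genes of 0.68 to 0.91 within a set and -0.35 to -0.19 between sets, and the labels give no reason for this. Together they held 45 reads on the set among 80854 counts, a share of 0.0557% (exact 95% interval 0.0406% to 0.0745%, counting error only). In the RNA of Tg hepatocytes the share was 0.244% to 0.338%. A low share was not particular to the set. The 9 hepatocyte markers summed to 0 to 292 CPM in the CLIP libraries, against 37418 to 48687 CPM in the RNA of Tg hepatocytes. Of the 36 genes 16 had a read, 12 of them a single one, and 0 reads over all libraries allows a share of up to 0.00371%. In single libraries 1 to 4 of the 36 genes had a read, as did 1043 to 1410 of all 41388 genes. Hnrnph2 had 17 reads in 6 libraries, a share of 0.0210% (0.0123% to 0.0337%), against 0.000723% to 0.00207% of counts in the RNA of Tg hepatocytes. Its reads were 16 in 1 set of libraries and 1 in the other, so they rest on that set. Hnrnpdl had 10 reads in 6 libraries, 5 in each set, a share of 0.0124% (0.00593% to 0.0227%), against 0.00305% to 0.00825% in RNA. Mbnl1 had 4 reads and Hnrnpm 2. Hnrnpl had 1 read, a share of 0.00124%, against 0.0260% to 0.0313% in RNA. No control precipitate was analysed here, and the protocol amplified the fragments in 2 rounds of PCR, so these shares are levels and no measure of binding.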

How the data were processed

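Raw counts per gene were deposited by the authors together with CPM and RPKM computed from them. The submitters' processing notes name STAR 2.0.4b, Subread and featureCounts 1.45 and the build GRCm38; the annotation release, the strand setting and how multi-mapped reads were handled are not given in the sources used here. The deposited CPM values equal counts over the library total, and the deposited RPKM values equal CPM over the length in kilobases that the file headers list. Symbols came from the supplied name list and GENCODE M21, and positions from the files.

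Each comparison was fitted with edgeR 4.0.16 in R 4.3.3 (filterByExpr, TMM, quasi-likelihood F-test) on its own libraries, with Benjamini-Hochberg adjustment over all genes tested. A gene was called at an adjusted p below 0.05, and the standard error of a fold change is its size over the square root of F. The fit was tested on simulated data. DESeq2 1.42.0, RLE factors, no filter, 1 fit of all groups, a replicate block, a gene length offset (lowess, span 0.3) and leaving out libraries were alternatives. Where a group keeps 1 library, that library is assumed to vary like the others. The members, lists and naming rule were chosen with earlier results of these data known. The rule named all called members up to 12 per comparison, or the 6 of smallest p, besides the highest and lowest by RPKM, those with over 5 CLIP reads, and up to 3 called genes of each further list. Mbnl1, Hnrnph1, Ptbp1 and Srsf1 in hepatocytes or KO livers, and Vezf1, were named after their values were seen. The labels say that a pool combined separate mice, not whether pools shared any. The shared stretch of 1 gene is not reported here.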

Additional observations from a re-analysis of the deposited data

Results flagged for a closer look

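Of 71 groups of libraries looked at (35 genes in 2 liver groups of 4 pools, and the CLIP shares), 5 held 1 liver pool far from the others, where chance gives about 3.55. In Tg livers, Sf3b1 was at 153 CPM in the third pool against 161 to 162 CPM in the others, and Esrp2 at 82.5 CPM in the same pool against 105 to 109 CPM. In WT 6J livers, Celf1 was at 148 CPM in the first pool against 95.3 to 102 CPM, and Srsf2 at 60.8 CPM in the same pool against 51.8 to 52.5 CPM. Srsf7 was at 27.1 CPM in the fourth WT 6J pool against 18.7 to 19.8 CPM.

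The Tg effect and the KO effect in liver differed, by the test of the difference itself in edgeR, for 2 named genes outside the set. Rbm47 had a difference of -0.97 ± 0.19 on the log2 scale (edgeR adjusted p of 0.0357), with -0.43 ± 0.15 for Tg and 0.53 ± 0.09 for KO. A1cf had a difference of 2.46 ± 0.19 (edgeR adjusted p of 8.17e-05), with -0.65 ± 0.11 for Tg and -3.12 ± 0.15 for KO.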

How the results depend on the processing

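In hepatocytes the count of 0 called genes became 4 under DESeq2 (14.6% of all genes called) and 1 without a filter on low counts (2.77%). It became 17 in 1 fit of all 6 groups (1 higher and 16 lower, with 25.0% of all genes called). In that fit the median of all genes moved to 0.13. In Tg livers the count became 1 under DESeq2 (8.8% of all genes called) and 1 in the fit of all groups (5.74%). In KO livers it became 1 under DESeq2 (5.66%) and 1 without a filter (4.09%). The difference of Tg and KO effects gave 2 under DESeq2 (4.88% of all genes). Leaving out 1 pool at a time gave 0 to 23 called genes in hepatocytes (0% to 35.0% of all genes). It gave 0 to 0 in Tg livers (0.187% to 3.92%) and 0 to 0 in KO livers (0.837% to 3.92%). Between plated hepatocytes and liver it gave 25 to 30 (65.2% to 72.5%). For the difference of Tg effects it gave 0 to 15 (0.0315% to 22.4%), with 15 without the third Tg hepatocyte pool. For the difference of Tg and KO effects it gave 0 to 1 (0.145% to 2.72%). The cause of each change was not tested. The median RPKM of the set under TMM scaling was 9.02 in WT 6J livers and 11.7 in WT 6NJ livers. The members given in full, which are the ones recomputed, kept their direction and any call under the alternatives run. Their sizes moved: without 1 pool, the KO value ranged from -0.25 to -0.09 for Hnrnpf, -0.32 to -0.12 for Hnrnph2, 0.16 to 0.40 for Srsf4 and 0.11 to 0.24 for Hnrnpd, and the Tg liver value from -0.76 to -0.40 for Hnrnpd and -0.46 to -0.23 for Celf1.

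Correlations between pools with the same number were 0.69, -0.51 and -0.03 in hepatocytes and between -0.15 and 0.06 in the 2 liver comparisons. Between hepatocyte pools with different numbers they ran from -0.75 to 0.72. They were taken on deviations from group means, which depend on each other, and cannot show whether pools were paired. With the replicate block 0 genes of the set were called in each genotype comparison. Of all genes it called 0.153% in hepatocytes, 0.312% in Tg livers and 2.6% in KO livers. Between plated hepatocytes and liver it called 24 of the set and 65.3% of all genes, against 26 and 72.0% without it. Low counts limit what can be said of Srsf1, with 0 to 9 reads in each library outside the KO study, and of single genes in CLIP libraries.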
